A study of Mus musculus with 6 samples.

Results

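Collagen expression was examined in retinal endothelial cells of 7-day-old mouse pups (postnatal day 7), with and without an induced deletion of Smad4. Members were chosen by symbol, as the rows named Col, a number, a and a number that had a summed count of at least 15 over the 6 libraries. This gave 44 of the 24421 genes in the count table, and 39 of the 44 had enough counts to be tested, among 14362 tested genes. The 3 Smad4-iECKO samples had the genotype Smad4f/f;Cdh5-CreERT2, in which a Cre recombinase activated by tamoxifen is expressed from the promoter of VE-cadherin, an endothelial adhesion gene. The 3 Smad4f/f samples carried the same floxed alleles without Cre. All pups were of a mixed BL6/CD1 background, and tamoxifen was given at postnatal day 1. The labels do not state whether a sample came from 1 pup or from several.

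Collagens are triple-helical proteins of the extracellular matrix. Their chains are hydroxylated in the endoplasmic reticulum, wound into trimers with the help of the chaperone Hsp47, secreted and then assembled into networks, fibrils or filaments according to their class. Type IV collagen forms the sheet-like network of basement membranes, and in vessels it lies between endothelial cells and pericytes together with laminins, nidogens and perlecan. In the first postnatal week the mouse retinal vessels spread from the optic nerve head toward the periphery, and the sprouting vessels lay down basement membrane as they advance. Smad4 is the partner of the receptor-activated Smads of the TGF-beta and BMP pathways, which regulate matrix genes in many cell types.

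One library differed from the others in ways that touch every result below. Total counts were 12633018 to 23164952 in 5 libraries and 2233360 in Smad4-iECKO replicate 2. The correlation of log2 CPM (counts scaled by TMM to a common library size) across genes was 0.790 to 0.829 between Smad4-iECKO replicate 2 and the others and 0.898 to 0.972 among the others. Smad4-iECKO replicate 2 and Smad4f/f replicate 2 share the title prefix 40, and the other 4 libraries have the prefix 38. All 15 endothelial markers had counts in every library, and their summed level was 7481, 1462 and 4482 CPM in Smad4f/f replicates 1 to 3 and 2500.0, 5149 and 4092 CPM in Smad4-iECKO replicates 1 to 3. Rod photoreceptor markers summed to 6026 to 11584 CPM in Smad4f/f and 6236 to 9820 CPM in Smad4-iECKO, so RNA of neural retina was present in every library. Smad4 itself was at 109.5 to 157.5 CPM in Smad4f/f and 93.9 to 133.9 CPM in Smad4-iECKO, a log2 fold change of -0.24 (SE 0.29), and since the floxed exons are not stated, a count over the whole gene does not check the deletion.

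In Smad4f/f cells the collagens with the highest level per exonic kilobase were the classical basement membrane chains. Col4a1 was at 394 ± 285 CPM per kb and Col4a2 at 238 ± 136 CPM per kb (SD, n = 3). Within each of the 3 libraries Col4a1 was above Col4a2 on this scale. Col18a1 followed at 74.5 ± 45.6 CPM per kb, Col2a1 at 33.4 ± 18 CPM per kb and Col15a1 at 17.0 ± 6.9 CPM per kb.

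Col4a1 and Col4a2 are neighbours in opposite orientation, the arrangement by which the chains of the main type IV trimer share a promoter region. In the RefSeq annotation of GRCm38.p6, Col4a1 starts at position 11312826 of chromosome 8 on the minus strand and Col4a2 at position 11312805 on the plus strand. The 5′ ends therefore overlap by 22 bases, which lie inside both genes and are shown because they are the stretch the pair has in common, with a GC box (GGGCGG, a motif of the Sp1 family) in capitals. The 250 bases upstream of Col15a1 and of Col5a3 are shown because neither stretch lies in an annotated exon and because of their levels in CPM. On that scale all 3 Smad4-iECKO libraries lay above all 3 Smad4f/f libraries for both genes.
Shared start of Col4a1 and Col4a2, chr8:11312805-11312826, plus strand: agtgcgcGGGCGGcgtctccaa
Upstream of Col15a1, chr4:47207762-47208011, plus strand: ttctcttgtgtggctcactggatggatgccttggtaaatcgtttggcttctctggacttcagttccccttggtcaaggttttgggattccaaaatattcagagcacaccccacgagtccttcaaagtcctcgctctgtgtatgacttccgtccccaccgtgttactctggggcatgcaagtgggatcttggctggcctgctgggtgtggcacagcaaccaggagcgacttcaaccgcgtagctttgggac
Upstream of Col5a3, chr9:20815068-20815317, minus strand: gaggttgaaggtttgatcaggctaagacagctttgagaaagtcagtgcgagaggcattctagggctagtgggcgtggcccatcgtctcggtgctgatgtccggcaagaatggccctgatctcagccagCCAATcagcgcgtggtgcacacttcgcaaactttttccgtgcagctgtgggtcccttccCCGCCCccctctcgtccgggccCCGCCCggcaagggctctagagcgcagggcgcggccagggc
Capitals in the Col5a3 stretch mark 1 CCAAT box (CCAAT or its complement) and 2 GC boxes (here as CCGCCC, the other strand), and the Col15a1 stretch holds neither these motifs, nor TATAAA, nor the GC-rich SMAD element GGCGCC. Windows from 250 bases before to 50 after a start were found for 35 of the 44 collagen genes, some of which have several starts. A GC box was present on either strand in 23 of the 38 collagen windows (60.5%) and in 35.7% of all 32851 windows, and the SMAD element in 5 of 38 (13.2%) and in 11.9% of all. CCAAT was found in 34.2% of collagen windows and 37.4% of all, and TATAAA in 13.2% and 13.6%. A match of letters is a description and not a bound site.

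The groups were compared to ask how collagen expression differed after loss of endothelial Smad4. Of the 39 tested collagens, 37 had a positive log2 fold change, against 48.2% of all tested genes, and their median was 0.91 against -0.02 over all tested genes. None passed edgeR's quasi-likelihood test at a Benjamini-Hochberg adjusted p of 0.05, as was the case for all genes (0 of 14362, 0%). At an unadjusted p under 0.05 there were 6 collagens, all higher in Smad4-iECKO: Col1a2, Col15a1, Col1a1, Col5a3, Col18a1 and Col4a2. Over all genes 1.31% reached that level, and 0.919% did so with a higher value in Smad4-iECKO. DESeq2 called 11 genes of 14359 (0.0766%) and no collagen, with 11 collagens at an unadjusted p under 0.05, a level reached by 2.12% of all genes in that fit. Limma-voom called no collagen, with 6 at that level against 1.25% of all genes. With sample quality weights it again called none, and 8 of 39 stood at that level against 5.44% of all genes.

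On the CPM scale the direction of the family rested on Smad4-iECKO replicate 2. This library had the highest level of 34 of the 39 tested collagens, and it had the highest level of 31% of all tested genes. Smad4f/f replicate 2, the other library with prefix 40, had the lowest level of 20 of the 39. Without Smad4-iECKO replicate 2, 23 of 41 tested collagens were positive with a median of 0.05, against 45.0% of all tested genes. Within prefix 38, 18 of 41 were positive with a median of -0.03, against 48.9% of all tested genes. Within prefix 40 each group is 1 library and no test can be made. There the log2 ratio was positive for 36 of the 39 tested collagens, against 47.5% of all tested genes. Its median was 2.56 for these collagens and -0.08 over all tested genes. In bulk RNA, fewer cells of a type and less RNA per cell cannot be told apart.

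**Figure D1:**
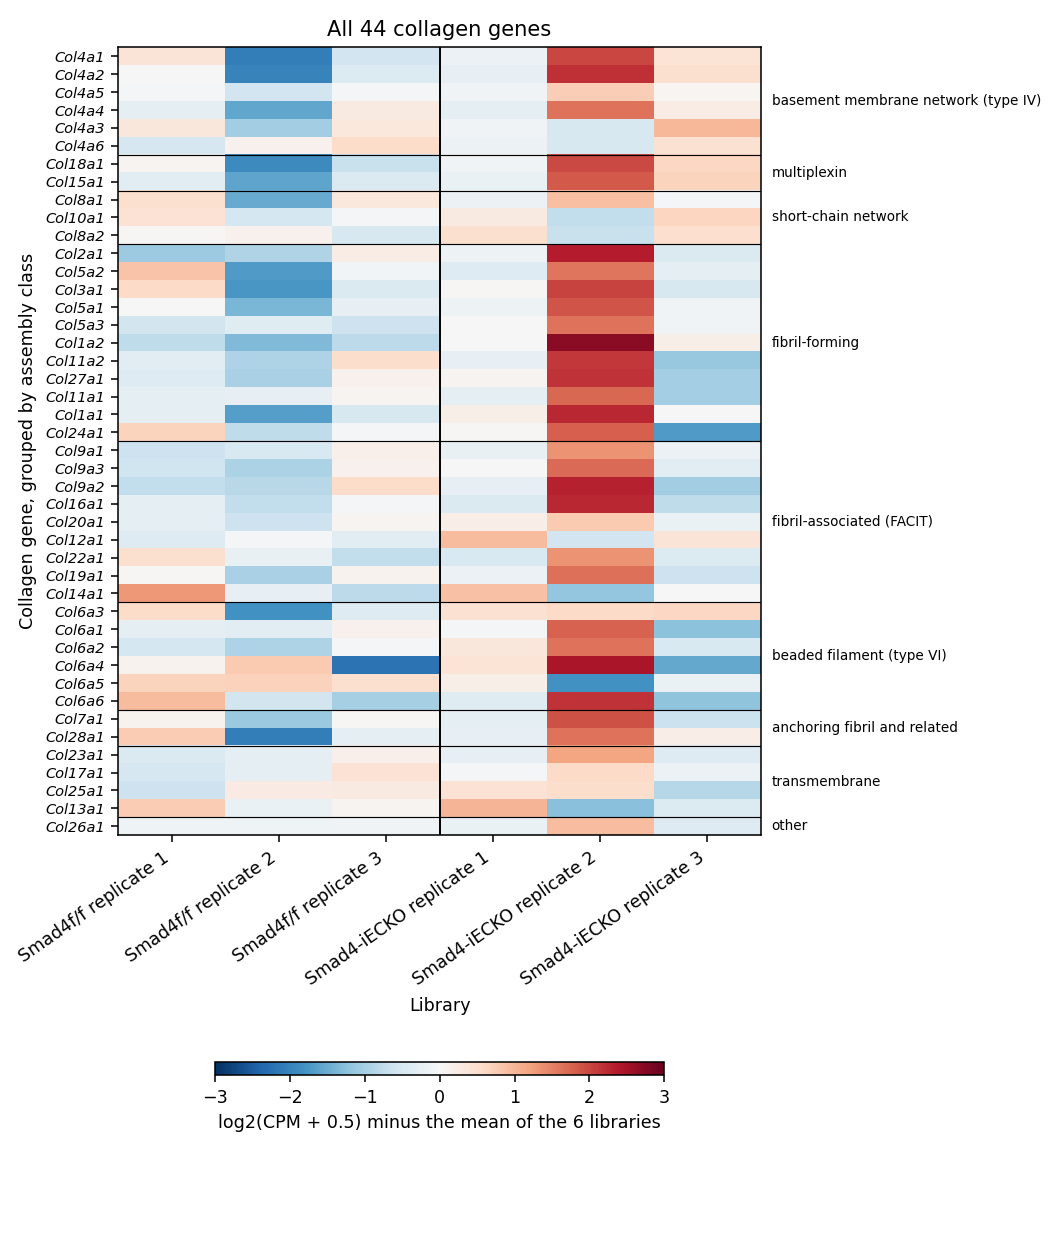
Each row is a collagen gene, grouped by how its protein assembles, and each column a library; colour gives log2(CPM + 0.5) minus the mean of the 6 libraries. The column of Smad4-iECKO replicate 2 is the highest for 35 of the 44 genes, across nearly all classes.

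Base composition also moved with this library. Over all tested genes with a known GC content, the median deviation of Smad4-iECKO replicate 2 from the mean of the 6 libraries went from -1.01 in the group of genes with the lowest GC content to 0.64 in the group with the highest, on the log2 scale, when genes were cut into 5 groups of nearly equal size. In the other libraries these medians stayed between -0.17 and 0.29. Collagen transcripts are rich in GC, since glycine and proline codons make up much of their length, and 19 of the 39 tested collagens were in the highest group. Collagens deviated further in Smad4-iECKO replicate 2 than other genes of their GC content, with medians of 0.97 to 1.98 in the 4 GC groups that held them, of 3 to 19 genes each. After a GC trend was removed from each library, 35 of 39 were positive with a median of 0.69. Over all tested genes 49.1% were positive, with a median of -0.0074. This fit still included Smad4-iECKO replicate 2, and no fit with the GC trend removed left that library out.

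**Figure D2:**
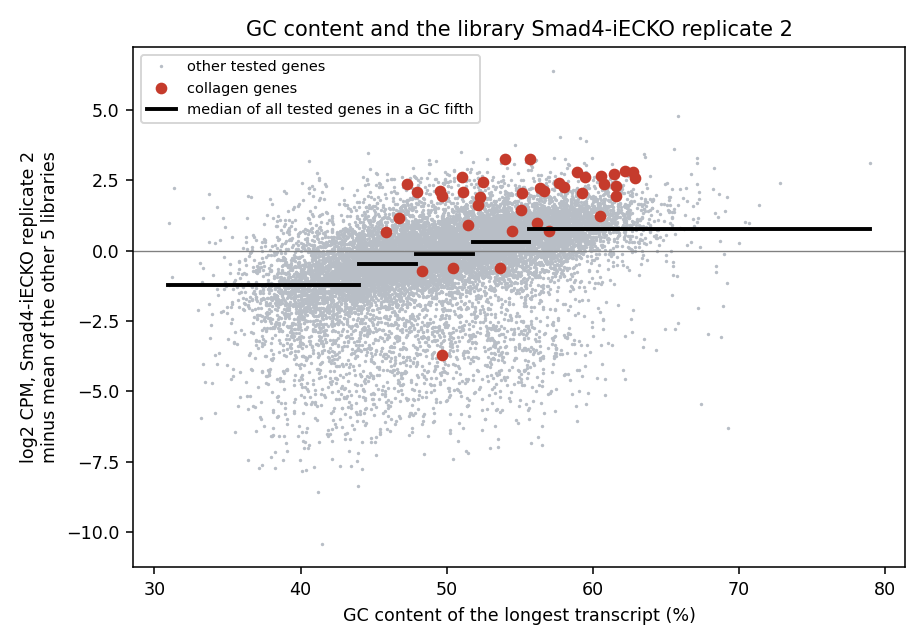
Each point is a tested gene, with the GC content of its longest transcript in percent on the horizontal axis and, on the vertical axis, its log2 CPM in Smad4-iECKO replicate 2 minus the mean of the other 5 libraries; black bars are medians of all genes in each of 5 GC groups. Red collagen points lie mostly above the black bars at the same GC content.

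The type IV chains are described first. Col4a1 and Col4a2 encode the chains of the main vascular basement membrane trimer. Col4a1 (chromosome 8, 11198423 to 11312826) was at 5179, 950.5 and 2689 CPM in Smad4f/f replicates 1 to 3 and at 3523, 15996 and 5314 CPM in Smad4-iECKO replicates 1 to 3. Its lowest value was in Smad4f/f replicate 2 and its highest in Smad4-iECKO replicate 2, and the remaining 4 libraries overlapped between groups. The log2 fold change was 1.49 (SE 0.76, unadjusted p = 0.0820, edgeR) and 0.15 (SE 0.53) within prefix 38. Col4a2 (chromosome 8, 11312805 to 11449287) was at 2347, 587 and 1788 CPM in Smad4f/f and at 1990, 10858 and 3300 CPM in Smad4-iECKO, in the same order of replicates. Its 6 libraries fell in the same order from low to high as those of Col4a1. Its log2 fold change was 1.77 (SE 0.74, unadjusted p = 0.0405, edgeR) and 0.34 (SE 0.45) within prefix 38.

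The level of Col4a2 per exonic kilobase was 0.511 to 0.766 of that of Col4a1 in the 6 libraries. The pair thus kept a narrow ratio across libraries whose levels of each chain were far apart. The minor chains Col4a3, Col4a4 and Col4a5, which are known from the glomerular basement membrane, and Col4a6 were far lower, with log2 fold changes of 0.37, 1.17, 0.49 and -0.11. Col4a4 and Col4a3 also lie head to head. Col4a4 per kilobase was 0.619 to 1.07 of Col4a3 in 5 libraries and 5.45 times it in Smad4-iECKO replicate 2, where the ratio rests on only 29 and 5 counts.

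The multiplexins are basement membrane collagens that carry heparan sulfate or chondroitin sulfate chains, and the C-terminal fragment of collagen XVIII is endostatin. Col18a1 (chromosome 10, 77052178 to 77166548) was at 852.5, 214 and 503 CPM in Smad4f/f and at 742, 3155 and 1239 CPM in Smad4-iECKO. Its libraries had the same order as for Col4a1, and Smad4-iECKO replicate 1 lay below Smad4f/f replicate 1. The log2 fold change was 1.71 (SE 0.65, unadjusted p = 0.0276, edgeR). Its level per exonic kilobase was 0.175 to 0.248 of that of Col4a1 in all libraries.

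Col15a1 (chromosome 4, 47208161 to 47313167) encodes collagen XV, found at the outer zone of vascular and muscle basement membranes. It was at 139, 57.7 and 127 CPM in Smad4f/f and at 151, 623 and 275 CPM in Smad4-iECKO. All 3 Smad4-iECKO libraries were above all 3 Smad4f/f libraries, with a gap between replicate 1 of each group that was small beside the spread. The log2 fold change was 1.70 (SE 0.55, unadjusted p = 0.0129, edgeR), and within prefix 38 it was 0.67 (SE 0.33). Such a separation was seen for 4 collagens (Col15a1, Col5a3, Col1a2 and Col1a1), and over all tested genes for 2.49%. The summed level of 10 microglia and macrophage markers was also higher without overlap, at 34.8 to 59.9 CPM in Smad4f/f and 77.2 to 114 CPM in Smad4-iECKO, although P2ry12 and C1qa were at 0 in Smad4-iECKO replicate 2. Set against endothelial markers that sum overlapped, at 0.00706 to 0.0238 in Smad4f/f and 0.0150 to 0.0360 in Smad4-iECKO. The part of these cells in the result was not tested.

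**Figure D3:**
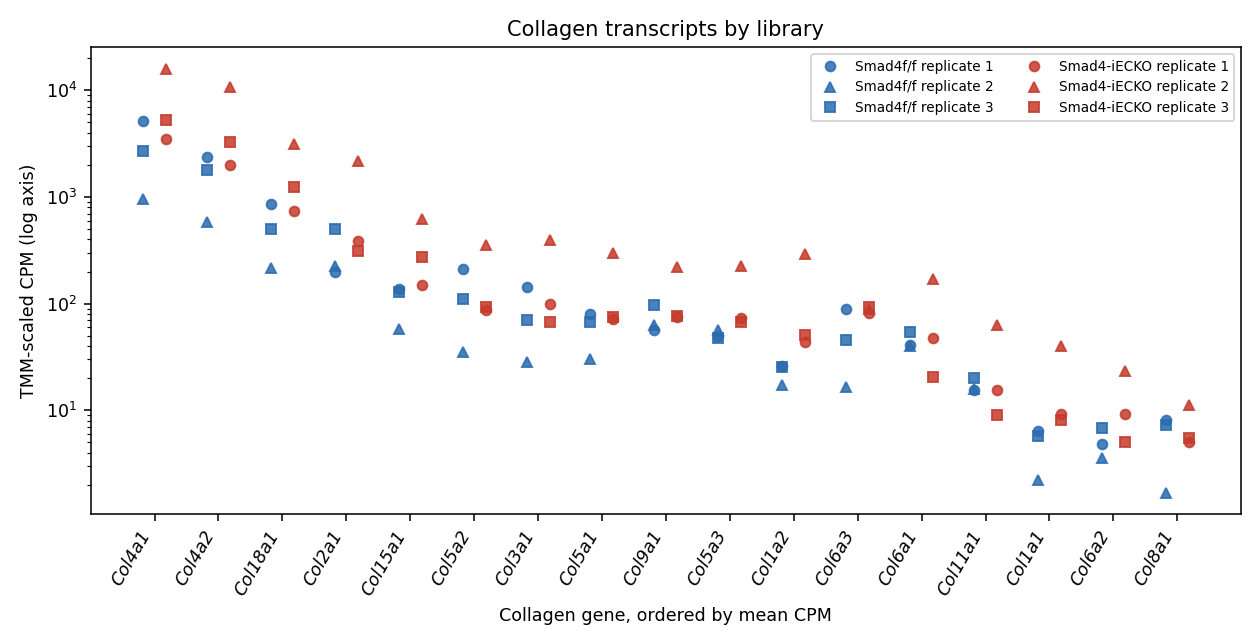
Points show the level of named collagens in each library in CPM on a log axis, with Smad4f/f and Smad4-iECKO side by side. Col6a5, whose Smad4-iECKO values all lie below its Smad4f/f values, is not drawn. Smad4-iECKO replicate 2 lies far above the other points for most genes, while the groups are apart without overlap for Col15a1, Col5a3, Col1a2 and Col1a1.

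Fibril-forming collagens build the banded fibrils of connective tissue. All 11 tested members of this class had a positive log2 fold change (median 1.25) and all 11 were highest in Smad4-iECKO replicate 2. Type I collagen is made of the chains of Col1a1 and Col1a2. Col1a2 (chromosome 6, 4504814 to 4541544) was at 26.2, 17.5 and 25.4 CPM in Smad4f/f and at 44, 295 and 50.8 CPM in Smad4-iECKO. The groups did not overlap, and the 2 lower Smad4-iECKO libraries were also above every Smad4f/f library. The log2 fold change was 2.48 (SE 0.71, unadjusted p = 0.00663, edgeR) and, within prefix 38, 0.86 (SE 0.26, unadjusted p = 0.0121). Without Smad4-iECKO replicate 2 it was 1.02 (SE 0.26, unadjusted p = 0.00578).

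Col1a1 (chromosome 11, 94936224 to 94953042) was at 6.47, 2.22 and 5.69 CPM in Smad4f/f and at 9.22, 40.4 and 8.13 CPM in Smad4-iECKO. Here too the groups did not overlap, with the closest values 6.47 and 8.13 CPM (log2 fold change 1.96, SE 0.72, unadjusted p = 0.0238, edgeR). Type I trimers normally hold more Col1a1 than Col1a2 chains, whereas Col1a1 per exonic kilobase was 0.241 to 0.468 of Col1a2 in these libraries, and 0.115 to 0.223 per kilobase of the longest transcript, since the merged exons of Col1a2 are much longer than its transcript. Of 13 fibroblast and meningeal markers, Lum and Dpt were at 0 in all libraries, and Dcn had 3 counts in Smad4f/f replicate 1 and 0 elsewhere. In Smad4-iECKO replicate 2, 7 of the 13 were at 0, most of them with few counts in every library, while Pdgfra (67.4 CPM), Foxc1 (65.5 CPM), Prrx1 (39.5 CPM) and Fbln2 (30.7 CPM) were detected. The list summed to 113 to 505 CPM in Smad4f/f and 213 to 531 CPM in Smad4-iECKO. Pdgfra alone was at 57.2 to 247 CPM in Smad4f/f and 67.4 to 387.5 CPM in Smad4-iECKO. Which cells its counts came from, and the part of the list in the result, were not tested.

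Col3a1, the chain of type III fibrils, was at 142, 28.3 and 71.0 CPM in Smad4f/f and at 98.3, 392 and 68.0 CPM in Smad4-iECKO. Col5a2, a chain of the type V collagen that starts fibrils, was at 211, 35.5 and 110 CPM in Smad4f/f and at 88.0, 352 and 93.8 CPM in Smad4-iECKO. Both overlapped between groups, with log2 fold changes of 1.20 (SE 0.73) for Col3a1 and 0.57 (SE 0.70) for Col5a2. Within prefix 38 the signs turned to -0.37 (SE 0.38) for Col3a1 and -0.84 (SE 0.35, unadjusted p = 0.0455, edgeR) for Col5a2.

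The other type V chains differed from Col5a2. Col5a1 was at 79.9, 30.5 and 67.5 CPM in Smad4f/f and at 71.3, 297 and 74.4 CPM in Smad4-iECKO, which overlapped (log2 fold change 1.30, SE 0.61). Col5a3 (chromosome 9, 20770050 to 20815067) was at 49.7, 56.4 and 47.4 CPM in Smad4f/f and at 73.6, 226 and 67.8 CPM in Smad4-iECKO. The Smad4f/f values of Col5a3 lay close together and every Smad4-iECKO value was above them (log2 fold change 1.25, SE 0.47, unadjusted p = 0.0263, edgeR). Within prefix 38 the value was 0.53 (SE 0.24, unadjusted p = 0.0667).

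Col2a1 and Col9a1 form the heterotypic fibrils of cartilage and of the vitreous body, and in the eye they come from cells outside the vessels. Col2a1 was at 199, 226 and 499 CPM in Smad4f/f and at 384, 2159 and 313 CPM in Smad4-iECKO. Apart from the single high library, the range of Smad4-iECKO lay within that of Smad4f/f (log2 fold change 1.63, SE 0.75, and -0.01, SE 0.43, within prefix 38). Col9a1, a fibril-associated (FACIT) chain, was at 56.6, 63.2 and 97.2 CPM in Smad4f/f and at 75.4, 223 and 76.9 CPM in Smad4-iECKO, with the same overlap (log2 fold change 0.78, SE 0.47). All 8 tested FACIT collagens were positive (median 0.85), and 7 of the 9 members of this class were highest in Smad4-iECKO replicate 2. The exception among the tested ones was Col12a1, at 9.70, 12.4 and 10.1 CPM in Smad4f/f and 25.3, 8.37 and 16.7 CPM in Smad4-iECKO.

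Type VI collagen forms beaded microfibrils beside basement membranes, from the chains of Col6a1, Col6a2 and another chain such as Col6a3. Col6a3 was at 88.2, 16.7 and 45.7 CPM in Smad4f/f and at 82.4, 89.7 and 93.2 CPM in Smad4-iECKO. It is unlike the other abundant collagens in that Smad4-iECKO replicate 2 was not apart, and its Smad4-iECKO values were nearly equal while the Smad4f/f values spread widely (log2 fold change 0.82, SE 0.51). Col6a1 was at 41.2, 39.9 and 53.9 CPM in Smad4f/f and at 47.3, 169 and 20.6 CPM in Smad4-iECKO (log2 fold change 0.79, SE 0.64). Col6a2 was at 4.81, 3.54 and 6.81 CPM in Smad4f/f and at 9.16, 23.2 and 5.02 CPM in Smad4-iECKO (1.26, SE 0.62). Both overlapped, with Smad4-iECKO replicate 2 highest.

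Col6a5 was the 1 collagen with all Smad4-iECKO values below all Smad4f/f values, a separation found for 2.83% of all tested genes. It was at 2.29, 2.35 and 1.95 CPM in Smad4f/f and at 1.5, 0 and 1.04 CPM in Smad4-iECKO. A count of 0 in Smad4-iECKO replicate 2 allows up to 1.34 CPM (3 counts, counting error only), which is within the range of the other Smad4-iECKO libraries.

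The remaining collagens had mean levels of at most 75.2 CPM. Col11a1, a minor fibril chain, was at 15.4, 15.7 and 20.1 CPM in Smad4f/f and at 15.6, 62.8 and 9.01 CPM in Smad4-iECKO (log2 fold change 0.72, SE 0.65). Col8a1, a network chain of the subendothelium and of Descemet's membrane, was at 8.20, 1.69 and 7.26 CPM in Smad4f/f and at 5, 11.2 and 5.50 CPM in Smad4-iECKO (0.30, SE 0.67). Neither separated the groups. The other 21 tested members had mean levels of 1.49 to 75.2 CPM and log2 fold changes of -0.11 to 1.34, with 20 positive and 18 highest in Smad4-iECKO replicate 2. The transmembrane collagens Col23a1, Col17a1 and Col25a1, which stay anchored in the cell membrane, were among those with small values (0.53, 0.21 and 0.12). Col6a6, Col14a1, Col13a1, Col10a1 and Col8a2 were not tested, with 33 to 81 counts over all libraries and at most 4.65 CPM in any of them.

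**Figure D4:**
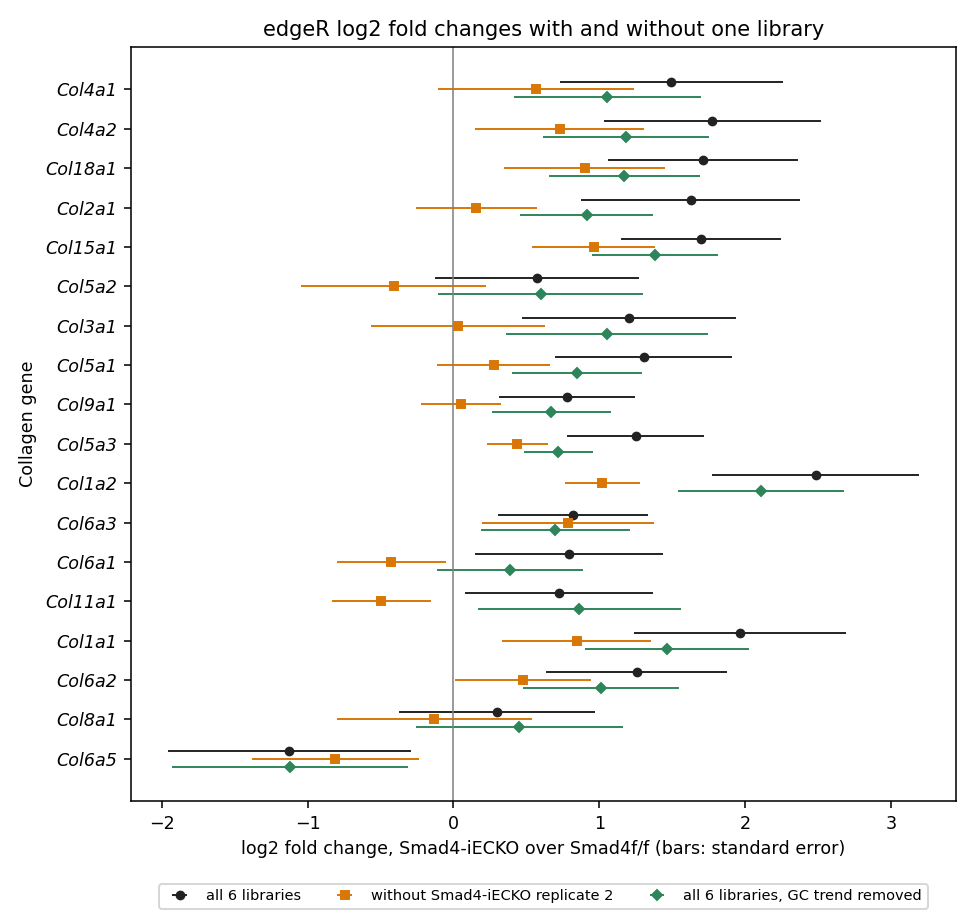
Points are log2 fold changes of Smad4-iECKO over Smad4f/f for the named collagens with their standard errors, from all 6 libraries, without Smad4-iECKO replicate 2, and from all 6 after removal of a GC trend. Without that library most values move toward 0, and Col1a2 keeps a value of 1.02.

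Libraries differed in how much endothelial RNA they held, with the Smad4-iECKO sums inside the range of the Smad4f/f sums, so collagen levels were also set against the summed CPM of the 15 endothelial markers. Within prefix 38 both Smad4-iECKO sums (2500 and 4092 CPM) lay below both Smad4f/f sums (7481 and 4482 CPM). The log2 fold change was negative for 11 of the 15 markers (median -0.26). It was lowest for Tek (-1.35, unadjusted p = 0.0422, edgeR) and Sox17 (-1.16). Whether the endothelial markers respond to loss of Smad4 was not tested. With endothelial scaling the median log2 fold change of all tested genes shifted to -0.30. In Smad4f/f, Col4a1 stood at 692, 650 and 600 per 1000 endothelial CPM, although its CPM differed 5.45-fold among these libraries. In Smad4-iECKO it stood at 1409, 3106 and 1299, above every Smad4f/f value. The mean was 2.99-fold higher, and 2.09-fold higher without Smad4-iECKO replicate 2.

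Of the 6 type IV chains, Col4a1, Col4a2 and Col4a4 were higher without overlap on this scale, and Col4a3 (1.38-fold), Col4a5 (1.20-fold) and Col4a6 (0.699-fold) overlapped. Both multiplexins were higher without overlap. Col4a2 was at 314, 402 and 399 per 1000 endothelial CPM in Smad4f/f and at 796, 2109 and 806 in Smad4-iECKO (3.33-fold, and 2.16-fold without Smad4-iECKO replicate 2). Col18a1 was at 114, 146 and 112 in Smad4f/f and at 297, 613 and 303 in Smad4-iECKO (3.26-fold and 2.42-fold). Col15a1 was at 18.5, 39.4 and 28.4 in Smad4f/f and at 60.5, 121 and 67.2 in Smad4-iECKO (2.88-fold and 2.22-fold). Within prefix 38, where the endothelial sums were lower in Smad4-iECKO, Col4a1, Col4a2 and Col18a1 overlapped between groups in CPM, and Col15a1 did not. Set against the endothelial sum, every Smad4-iECKO library was above every Smad4f/f library for each of these genes, those of prefix 38 included. With 3 libraries against 3, an exact two-sided permutation test cannot give a p below 0.1, which is its value for each such separation, and edgeR with this scaling called 0 of 14362 genes, with 36 genes and 1 collagen at an unadjusted p under 0.05.

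On this scale 9 of the 39 tested collagens were higher without overlap and none was lower, against 1.91% and 0.843% of all tested genes. The other members of the 9 were Col6a3, Col1a2, Col1a1, Col28a1 and Col4a4, and some of their gaps were narrow. The highest Smad4f/f and lowest Smad4-iECKO values per 1000 endothelial CPM were 11.93 and 12.41 for Col1a2. They were 1.102 and 1.169 for Col4a4, 1.033 and 1.247 for Col28a1, 1.52 and 1.99 for Col1a1, and 11.8 and 17.4 for Col6a3. Among the Smad4f/f libraries Col1a2 differed 3.41-fold on this scale and 1.5-fold in CPM. The folds of the 9 ran from 2.19 to 4.13, and from 1.66 to 2.5 without Smad4-iECKO replicate 2. Without that library 10 of 41 were higher and none lower, against 4.89% and 1.26% of all tested genes. Col2a1, Col9a1, Col23a1, Col17a1, Col3a1 and Col5a2 overlapped between groups. Col5a3, whose groups were apart in CPM, overlapped on this scale too. It was at 6.64, 38.55 and 10.56 per 1000 endothelial CPM in Smad4f/f and at 29.44, 43.87 and 16.56 in Smad4-iECKO. With each of the 15 markers taken alone, the groups separated upward for Col18a1 with 15 and for Col4a1 and Col4a2 with 14 of them. Col15a1 did so with 13, Col1a1 with 11, Col6a3 and Col28a1 with 10, and Col1a2 and Col4a4 with 9. This is not an independent check, since the 9 genes were picked by the sum of the same markers. The share of all tested genes was not counted for single markers. Pericyte and smooth muscle markers, cells that also make type IV collagen, stood at 0.342 to 0.449 of the endothelial sum in Smad4f/f and 0.411 to 0.467 in Smad4-iECKO, and their part in the result was not tested.

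**Figure D5:**
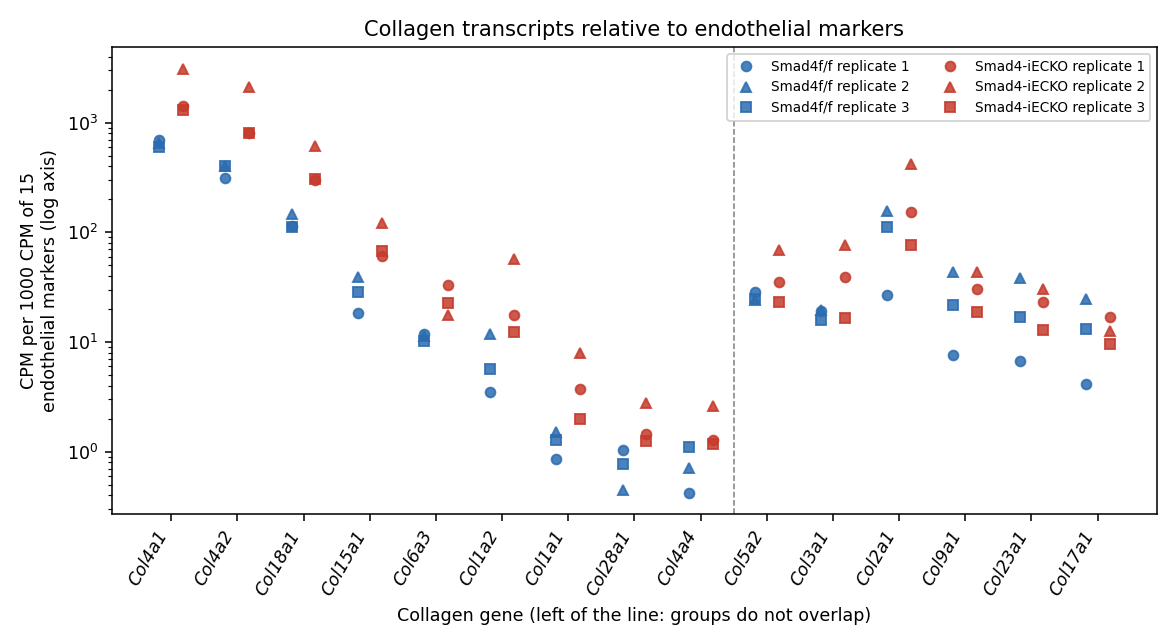
Points show collagen levels per 1000 CPM of the summed endothelial markers in each library, on a log axis, for Smad4f/f and Smad4-iECKO. For Col4a1, Col4a2, Col18a1 and Col15a1 the 3 Smad4f/f points lie below all 3 Smad4-iECKO points, while those of Col2a1 and Col9a1 overlap.

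Genes that make, process, bind or accompany collagen were taken from lists. No gene of the lists passed edgeR's adjusted threshold, as for all genes. Among 10 basement membrane partners, 9 had a positive log2 fold change (median 0.44), and all 10 overlapped between groups in CPM. Only when set against endothelial markers were 5 higher without overlap, against 1.91% of all tested genes. These were Lamb1, Lamb2 and Lamc1 (laminin chains), Nid2 (nidogen) and Hspg2 (perlecan). The laminin chains Lama4 and Lama5, the nidogen Nid1, agrin (Agrn) and the matricellular protein gene Sparc overlapped, with ratios of the group means of 1.47, 1.27, 1.25, 1.05 and 1.00. Lamb1 was at 94.1, 82.2 and 87.0 per 1000 endothelial CPM in Smad4f/f and at 160.0, 166 and 160 in Smad4-iECKO, a 1.84-fold difference with little spread and with Smad4-iECKO replicate 2 beside the others. Lamc1 was at 84.2, 122 and 108 in Smad4f/f and at 235, 211 and 233 in Smad4-iECKO (2.16-fold). Hspg2 was at 159, 269 and 322 in Smad4f/f and at 440.0, 617 and 554 in Smad4-iECKO (2.15-fold).

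Of 18 enzymes and chaperones of collagen hydroxylation and folding, 9 were positive and 9 negative (median 0.04). In edgeR 2 stood at an unadjusted p under 0.05, against 1.31% of all tested genes. P4ha2, a catalytic subunit of prolyl 4-hydroxylase, was at 5.05, 5.51 and 4.26 CPM in Smad4f/f and at 12.2, 14.4 and 11.5 CPM in Smad4-iECKO, apart in all libraries (log2 fold change 1.35, SE 0.41, unadjusted p = 0.00925, edgeR). P3h2, a prolyl 3-hydroxylase that acts on basement membrane collagen, was at 10.9 to 12.8 CPM in Smad4f/f and 14.8 to 37.2 CPM in Smad4-iECKO (log2 fold change 0.99, SE 0.43, unadjusted p = 0.0442). In CPM both enzymes were higher without overlap, as were 2.49% of all tested genes. They overlapped between groups when set against endothelial markers. Propeptide cleavage and cross-linking genes (8 of 11 positive, median 0.30) and collagen receptors (6 of 9 positive, median 0.09) held none at an unadjusted p under 0.05. The genes with the smallest unadjusted p were Adamts2 and Adamts14, procollagen N-proteinases with log2 fold changes of 1.27 (SE 0.71) and 1.39 (SE 1.05), and the integrin chains Itga11 with 1.74 (SE 0.97) and Itga2 with -0.96 (SE 0.55). Set against endothelial markers, Fkbp10 of the 18, Adamts2 of the 11, and Itga11 and Mrc2 of the 9 were higher without overlap. No gene of these lists was lower without overlap. Over all tested genes the shares were 1.91% and 0.843%. Ratios of the group means were 1.28, 2.83, 3.23 and 1.56. The gap was narrow for Fkbp10, between 21.45 and 21.59 per 1000 endothelial CPM, and for Mrc2, between 5.02 and 5.14.

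The authors' deposited table for these groups gives an adjusted p for 40 of the 44 collagens. The authors' deposited table called 18 higher and 1 lower in Smad4-iECKO at an adjusted p under 0.05, against 7.7% of all genes called higher and 13.4% called in either direction. Col1a2 leads the authors' deposited table among collagens with a log2 fold change of 1.80 (adjusted p = 6.33e-07), followed by Col15a1 with 1.38 (adjusted p = 2.13e-05), and the lower gene is Col6a5 with -0.84. The count table holds 3 identical columns for each sample. DESeq2 with shrunken fold changes on all 18 columns gave log2 fold changes within 0.0680 of the authors' deposited table for the collagens and called 19 of them. Over all genes it called 2178, against 1905 in the authors' deposited table, so the match was close but not exact. The same fit with each sample entered once called 0 collagens and 10 genes.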

How the data were processed

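Total RNA was purified with a commercial kit and sequenced as TruSeq libraries, per the labels' protocols. The submitters' processing notes name STAR, DESeq2 and the mm10 build, and how reads were counted, and against which annotation, is not given in the sources used here. The authors deposited whole-number read counts per gene, not normalized, with 3 identical columns per sample, of which 1 was used. The deposited comparison table holds a mean normalized signal, a log2 fold change with its standard error, a score (the test statistic) and a raw and an adjusted p-value for each gene. Groups came from the genotype label, and replicates were numbered in accession order. P-values therefore reflect only how these samples vary, which may be technical.

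Counts were tested with edgeR 4.0.16 (quasi-likelihood F-test, TMM, filterByExpr with a minimum count of 10 and total of 15, no covariate, Benjamini-Hochberg). The SE was the log2 fold change divided by the square root of F. DESeq2 1.42.0, limma-voom (limma 3.58.1) and other scalings and filters were alternatives. The GC trend and endothelial scaling combinations, shrunken DESeq2 and single markers as denominators were chosen after seeing the data. Scripts were tested on simulated data. Coordinates and exonic lengths are from GENCODE M21 (mm10) and promoter windows from RefSeq. GC content was known for 96.4% of tested genes and for all collagens. Members, lists and tests were chosen with earlier results of these data known. Named collagens were 16 main chains of the classes, the 10 most abundant, those whose groups do not overlap, those at an unadjusted p under 0.05 and up to 8 that the deposited table calls. From each pathway list the 2 genes with the smallest p were named. The minor type IV chains, Col28a1, Col12a1, the transmembrane chains, Fkbp10, Mrc2, Lamb1, Lamb2, Nid2 and other members of the basement membrane list were named after their values were seen. A count of 3 corresponds to 0.130 to 0.238 CPM in the 5 deeper libraries.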

Additional observations from a re-analysis of the deposited data

How the results depend on the processing

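The count of collagens called was 0 in every alternative that entered each sample once, while edgeR's count of called genes, 0, was 11 with DESeq2 and 8 with limma-voom and sample quality weights. The number of positive collagens, 37 of 39, was 23 with those weights and 18 of 41 within prefix 38. In these fits 51.1% and 48.9% of all tested genes were positive, and the collagen median within prefix 38 was -0.033. Collagens whose groups did not overlap, 5 in all 6 libraries (4 higher, 1 lower), were 9 with endothelial scaling and 10 with that scaling and Smad4-iECKO replicate 2 left out, all higher. Within prefix 38 there were 13, 5 higher and 8 lower, where 15.4% and 15.5% of all genes separate upward and downward. Leaving out each library in turn gave 23 to 39 positive collagens, a median of 0.05 to 1.35 and 5 to 12 without overlap, where 5.61 to 7.06% of all genes separate upward and 6.73 to 8.29% downward. The lowest positive count and median came without Smad4-iECKO replicate 2, with 5 separated collagens higher and 3 lower. In these fits Col8a1 ran from -0.15 to 0.65, Col5a2 from -0.41 to 1.27, Col6a1 from -0.43 to 1.24 and Col11a1 from -0.50 to 1.16. Log2 fold changes turned negative within prefix 38 for Col2a1 (-0.013), Col5a2 (-0.84), Col3a1 (-0.37), Col5a1 (-0.033), Col9a1 (-0.027), Col6a1 (-0.49), Col11a1 (-0.54) and Col8a1 (-0.57). They did so in limma-voom for Col6a1 (-0.0125) and Col11a1 (-0.16), with quality weights for Col9a1 (-0.092), Col6a1 (-0.51) and Col11a1 (-0.52), and with endothelial scaling without Smad4-iECKO replicate 2 for Col6a1 (-0.32) and Col11a1 (-0.45). The cause was not tested. Of the alternative values of the named collagens, 339 kept their sign and their side of the threshold and 20 changed sign. The labels do not say that title prefixes 38 and 40 pair samples, and the deviations of the 2 libraries of prefix 40 correlated at -0.009. With the prefix as a replicate block, 37 of 39 collagens were positive with a median of 0.59, and 0 genes were called. Thinned to the smallest library, 31 collagens remained testable, all positive, with a median of 1.20. At the depth of Smad4-iECKO replicate 2, collagens under 1.34 CPM could not be told from 0.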
